A study of Mus musculus with 4 samples.

Results

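The locus described here is the interval of mouse chromosome 2 around Cwc22, chr2:77446356-78446356 in the mm10 build, which reaches 500 kb to either side of the Cwc22 start site. Its members are the accessible regions that overlap this interval in either of 2 ATAC-seq peak lists. There were 94 such regions of 99427 in the E10.5 list and 10 of 37548 in the E11.5 list. The interval was selected on the number of E10.5 regions without an E11.5 overlap near Cwc22, and its dense part was chosen by the spacing of E10.5 regions. The numbers below therefore describe it, and no test was applied to them. E stands for embryonic day.

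ATAC-seq marks accessible DNA by letting the Tn5 transposase insert sequencing adaptors into it. The cells were trypsin-dissociated, fixed cells of fore- and hindlimbs from wild-type mouse embryos, and the 4 samples form 2 groups of 2, E10.5 and E11.5. Sample titles give these stages, while the protocol text calls the earlier one E10. The strain of the embryos, the number of animals per sample and how the 2 replicates were joined into 1 list per stage are not given in the sources used here. With 1 list per stage there is no spread between replicates, and the depth of the samples is unknown.

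Cwc22 encodes a protein of the spliceosome that is needed for splicing and that brings the helicase at the core of the exon junction complex to the pre-mRNA. The gene is used in nearly all cell types. It lies within a segment known as a copy-number variant among mouse strains, in which extra copies of the segment, Cwc22 included, have been described in some laboratory and wild-derived strains. Reads from extra copies align to the copy held by the reference genome, so a list of peaks does not separate more copies from more open copies. The lists give no number of reads or copies, so the 2 cannot be told apart here, and the term copy-variable is background and was not checked against these data.

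The labelled tissue was checked at promoters, taken as 1 kb to either side of a gene's outer start site. All 6 limb mesenchyme genes examined (Prrx1, Prrx2, Twist1, Msx1, Lhx9 and Alx4) had a promoter region in both lists, as did all 3 surface ectoderm genes (Krt8, Krt18 and Epcam). The forelimb gene Tbx5 and the hindlimb gene Pitx1 had one at E10.5 only, and the hindlimb gene Tbx4 had one in both lists. Of 4 blood and endothelial genes, Kdr had one in both lists, Cdh5 at E10.5 only, Hbb-y at E11.5 only and Gata1 in neither. Of 3 genes of other organs, Myh6 had one at E10.5 and none did at E11.5.

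Cwc22 lies on the minus strand at chr2:77881159-77946356 and is 65.2 kb long, and its start site is position 77946356. RefSeq lists 11 start sites of 8 genes in the interval. Of these, 3 had a region within 1 kb, and the same 3 had one in both lists, namely the single start of Cwc22 and 2 of the 4 starts of Zfp385b, a zinc finger protein gene. Across the 32851 start sites of the RefSeq table the share with a region within 1 kb was 57.6% at E10.5, 48.4% at E11.5 and 47.7% in both. The start sites of the third protein-coding gene of the interval, Gm14461, and of the noncoding genes 4930440I19Rik, Gm52519, Gm13944, Gm35431 and Gm46750 had none in either list.

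The 250 bases before the Cwc22 start and before the outer listed Zfp385b start are shown because these promoters are open in both lists. Both sequences are from RefSeq, GRCm38.p6, which has the mm10 coordinates, and are written 5′ to 3′ on the strand of the gene. The Cwc22 stretch is chr2:77946357-77946606, minus strand, and its capitals mark ACTACAA on either strand. The Zfp385b stretch is chr2:77816817-77817066, minus strand, and its capitals mark the GC box GGGCGG on either strand.
Cwc22: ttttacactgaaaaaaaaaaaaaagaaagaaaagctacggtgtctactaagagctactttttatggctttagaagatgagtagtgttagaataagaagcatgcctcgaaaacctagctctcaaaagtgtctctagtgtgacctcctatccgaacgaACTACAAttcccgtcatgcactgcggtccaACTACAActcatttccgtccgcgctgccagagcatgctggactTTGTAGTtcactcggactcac
Zfp385b: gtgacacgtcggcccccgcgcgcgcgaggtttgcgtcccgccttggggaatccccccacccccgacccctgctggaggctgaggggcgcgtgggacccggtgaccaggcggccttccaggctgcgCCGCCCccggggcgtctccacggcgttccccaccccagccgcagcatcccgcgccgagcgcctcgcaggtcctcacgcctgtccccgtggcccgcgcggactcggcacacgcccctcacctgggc

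The Cwc22 promoter was poor in G and C, at 42.8% with 10 CpG pairs, against a median of 52.4% and 6 CpG over all listed promoters. It held no match to the GC box GGGCGG, to CCAAT or to TATAAA on either strand. These motifs occur in 32.7%, 33.8% and 12.4% of the 32851 listed promoters of the same length. It held 3 matches to ACTACAA, the letters that open the element bound by the zinc finger factor ZNF143. The first bases of the matches lay 94 and 64 bases before the start on the strand of the gene and 21 bases before it on the other strand. At least 1 match was present in 2.81% of listed promoters, at least 2 in 0.158% and 3 in 0.00913%, which is 3 promoters, those of Cwc22, Gm36735 and 1110036E04Rik. This motif was chosen after the Cwc22 sequence had been read, and a match of letters does not show a bound factor. The Zfp385b promoter was rich in G and C, at 77.6% with 33 CpG pairs, and the other open Zfp385b start, at position 77519666, had 39.2% and 7 CpG pairs.

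At the Cwc22 promoter the regions of both lists had almost the same summit and very different widths. The E10.5 region spanned 3215 bp at chr2:77943902-77947116, and the E11.5 region spanned 1306 bp at chr2:77945381-77946686. Their summits, the points of highest significance, were 1 bp apart, 0.192 and 0.193 kb inside the gene. The authors' signal value, a total over the region, came to 14496 at the earlier stage and 3125 at the later. Their −log10 p was 17.1 and 8.68. Within its own list the E10.5 region stood at percentile 99.5 of signal and 99.9 of −log10 p, and the E11.5 region at percentile 82.1 and 83.3. The Cwc22 promoter region thus ranked 1 of 94 by signal at E10.5 and 2 of 10 at E11.5, after the Zfp385b promoter. A second E10.5 region, at chr2:77947255-77951747, began within 1 kb upstream of the start. It was 4493 bp wide, with a signal of 5990, and no E11.5 region overlapped it.

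The E10.5 regions were packed into 1 stretch around the gene. When E10.5 regions less than or equal to 10 kb apart were chained into runs, a single run of 71 regions spanned 164 kb at chr2:77863277-78027254. It held 71 of the 94 E10.5 regions of the interval. The 71 regions covered 97.1 kb, or 59.2% of the run. The remaining 23 E10.5 regions covered 1.41% of the rest of the interval. In the E11.5 list, 3 regions lay in the run and covered 1.41% of it, and 7 lay outside it and covered 0.491%. Inside the run the lists thus stood at 71 against 3 regions, and outside it at 23 against 7, a ratio of 3.29 that is close to the ratio of 2.66 between the whole lists.

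**Figure D1:**
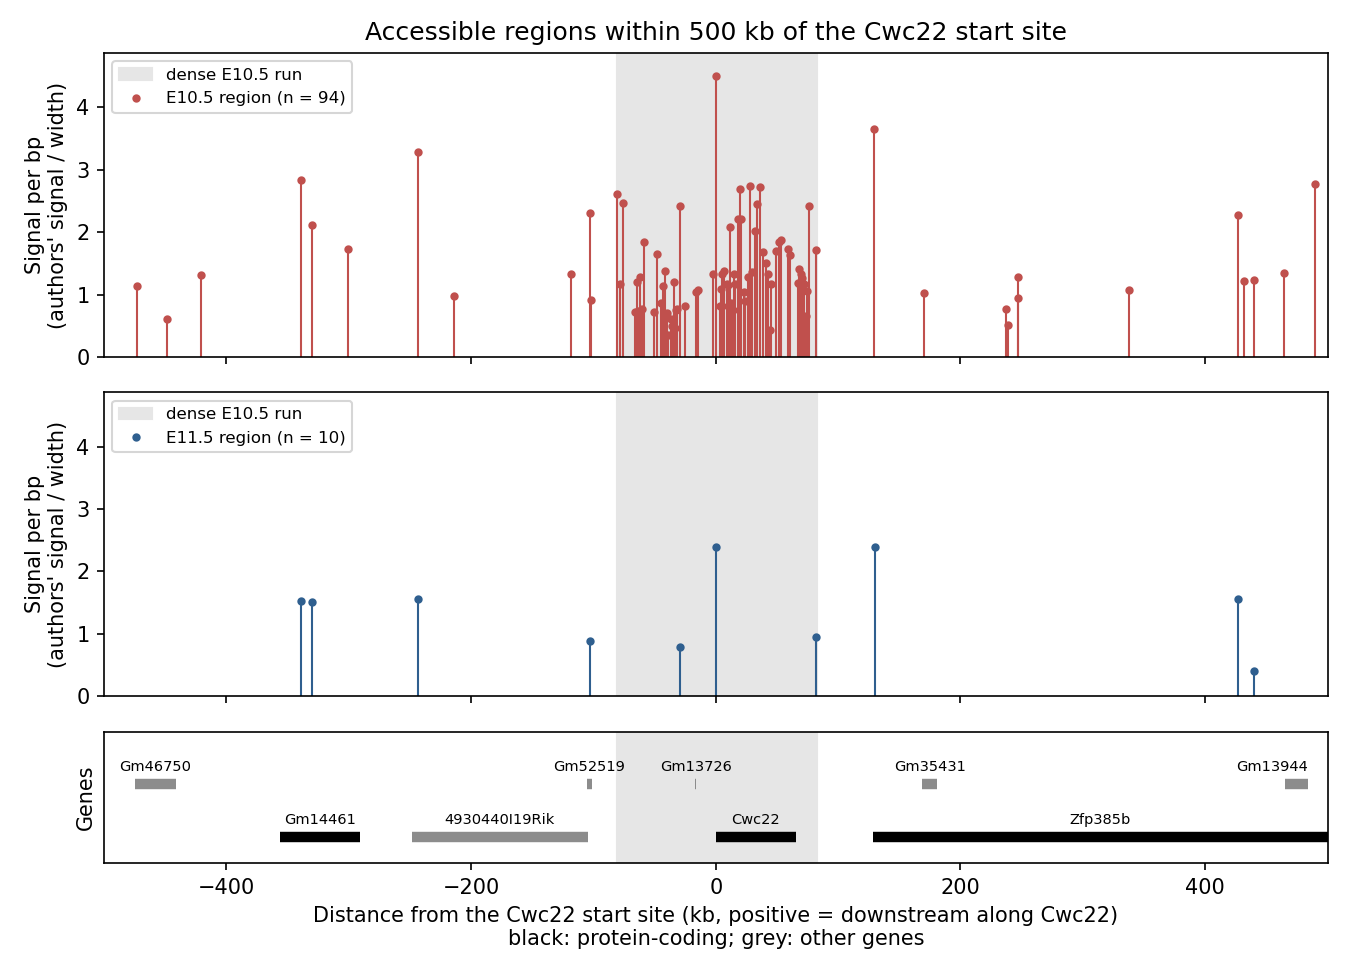
Regions within 500 kb of the Cwc22 start site, plotted at their summits by distance from that site (kb, positive along the direction of Cwc22 transcription), with the height giving signal per bp; E10.5 is above, E11.5 in the middle and the genes below. The 71 E10.5 regions of the dense run (grey) crowd over Cwc22 and upstream of it, where the E11.5 list has 3 regions.

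At the main setting the run was bounded by wide gaps on both sides, as its definition by a largest gap of 10 kb requires. The first region of the run, at chr2:77863277-77864469, lay between Cwc22 and Zfp385b and overlapped an E11.5 region. It was separated from the next by 5176 bp, and from the preceding E10.5 region, that of the Zfp385b promoter at chr2:77815856-77817477, by 45.8 kb. The next region opened the stretch with few E11.5 counterparts at position 77869646. That point is 11513 bp beyond the end of Cwc22 and 76.7 kb downstream of its start. The last region, at chr2:78025415-78027254, ended 80.9 kb upstream of the Cwc22 start, and the following E10.5 region lay 21.2 kb further on. From position 77869646 to 78027254 the stretch was 158 kb long. It held 70 E10.5 regions, of which 2 overlapped an E11.5 region. The largest gap inside the run was 7671 bp. Allowing gaps of at most 20 kb gave the same run, since the gaps at its ends were 45.8 and 21.2 kb, the second only just over that limit. The extent depended on the threshold for regions, and its upstream end moved at each stricter one. With only the E10.5 regions of highest signal, as many as in the E11.5 list, the run held 25 regions in 114 kb, at chr2:77863277-77977609. With −log10 p of at least 5 the run held 22 regions in 88.5 kb, at chr2:77863277-77951747, and 2 E11.5 regions. With only the E10.5 regions of highest −log10 p, as many as in the E11.5 list, the run held 8 regions in 37.9 kb, at chr2:77909225-77947116, all within Cwc22 and at its start.

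Per 20 kb bin, the share of bases inside E10.5 regions changed in a step at both ends of the run. In the 8 bins centred in the run it ran from 48.1 to 79.4%, with a median of 54.4%. In the 40 bins wholly outside the run it ran from 0 to 9.23%, with a median of 0. The 2 sets of bins did not overlap, as the choice of the run by its density makes likely. For the E11.5 list the bins in the run ran from 0 to 4.88% and those outside from 0 to 7.41%, so the E11.5 list showed no step.

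**Figure D2:**
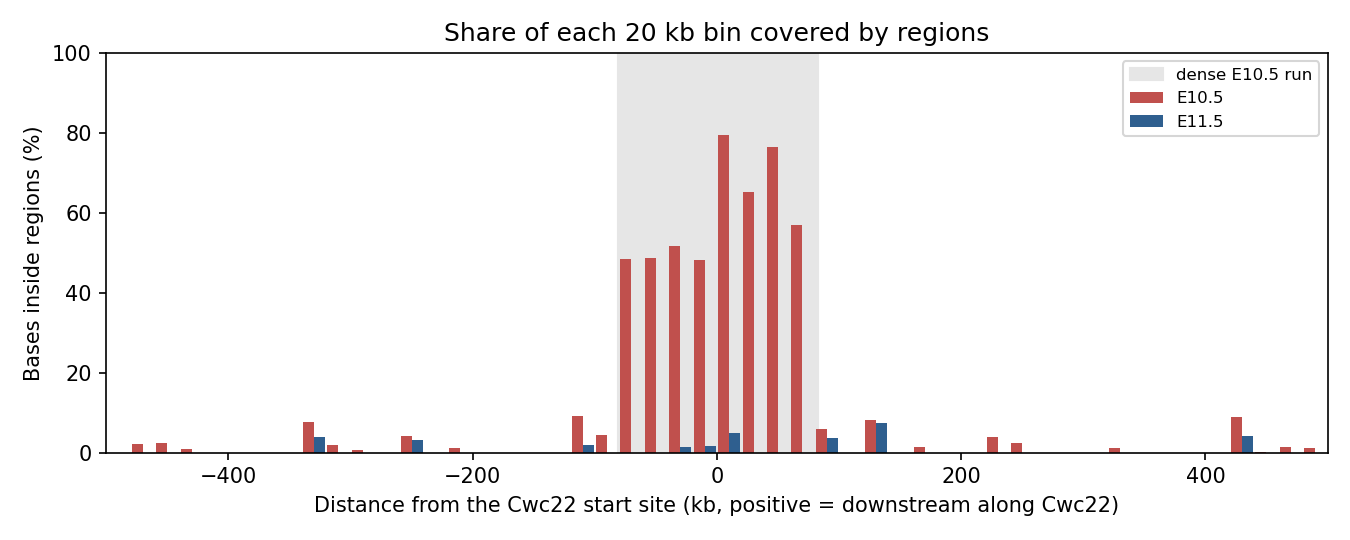
Percent of bases inside regions in each 20 kb bin by distance from the Cwc22 start site, for E10.5 (red) and E11.5 (blue), with the dense run in grey. The E10.5 bars stand between 48.1 and 79.4% in the 8 bins centred in the run and at 9.23% or less in the 40 bins wholly outside it.

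Gaps of more than 5 kb split the run into 6 blocks. The largest, at chr2:77869646-77951747, held 44 regions in 82.1 kb, 74.2% of it covered, and ran from beyond the end of Cwc22 over the whole gene to just upstream of its start. It was followed upstream by a block of 2 regions at chr2:77959299-77963786, which overlaps the pseudogene Gm13726. A block of 15 regions lay at chr2:77971426-77997500, one of 6 regions at chr2:78004214-78012286 and one of 3 regions at chr2:78019958-78027254. Apart from the opening block of 1 region, each block was covered by regions over 69.2 to 97.3% of its length. Beyond Gm13726 the RefSeq table places no gene in the part of the run upstream of Cwc22.

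By summit, 34 of the 71 regions lay within Cwc22, 10 downstream of its end and 27 upstream of its start. The regions with a summit in the gene had a summed width of 51.1 kb, equal to 78.4% of the gene's length. Regions that cross either end of the gene count here with their whole width, so these shares are not exact coverage. By the same count the share was 36.1% in the run downstream of the gene and 48.9% in the run upstream of the start. The median signal per bp was 1.37 in the gene, 1.23 downstream and 1.04 upstream. The quartiles were 1.16 to 1.98, 1.16 to 1.40 and 0.734 to 1.31. Those of the gene and of the downstream part overlapped widely. Those of the gene and of the upstream part shared only 1.16 to 1.31, and each median lay outside the other's quartiles. Exons and introns in mm10 were not used here, and the regions are placed in the gene only.

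Of the 71 E10.5 regions of the run, 68 had no E11.5 overlap of at least 1 bp, and 67.7% of the whole E10.5 list had none. The 3 that overlapped are 4.23% of the run (95% Wilson interval 1.45 to 11.7%), against 32.3% of the whole list. Outside the run 7 of 23 regions overlapped, which is 30.4% (15.6 to 50.9%). Such intervals take in counting error alone, as if neighbours were independent. All 10 E11.5 regions of the interval overlapped an E10.5 region, where 91.8% of the E11.5 list did.

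The low overlap in the run was not confined to its regions of low total signal. In the highest quartile of the E10.5 list by signal, from 2162 upward, 83.3% of regions overlapped an E11.5 region. The run had 22 regions of that signal, and 2 of them did. The interval outside the run had 3 such regions, and all 3 did. In the quartile below it, 31.1% of the list overlapped, against 1 of 19 regions of the run and 3 of 4 outside it. The same held by width. Among regions of at least 2000 bp, 87.3% of the list and 2 of 14 regions of the run overlapped an E11.5 region. Neither comparison matched regions by signal per bp or −log10 p. At that width the run had medians of 1.78 per bp and 6.74, and the list had 2.94 and 10.6. The list's regions were thus stronger by these measures, and overlap at like −log10 p was not tested.

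The 3 places of the run with regions in both lists were unlike each other. At the promoter the E11.5 signal was among the highest of the interval, as given above. The region at chr2:77973276-77977609, 29.4 kb upstream of the Cwc22 start and between genes, was the third strongest at E10.5. It was 4334 bp wide, and its signal was 10451 and its −log10 p 14.0, at percentile 98.3 of its list by either value. Its E11.5 counterpart, at chr2:77975678-77975956, was 279 bp wide, had signal 221 and −log10 p 3.50, and stood at percentile 5.04 and 4.09 of its list. At the downstream edge signal was 2049 and −log10 p 8.22 at E10.5, against 692 and 5.11 in the E11.5 region at chr2:77863607-77864331. The signal values of the lists stand side by side and are not compared, since nothing states that the authors scaled them to each other.

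The other strong E10.5 regions of the run had no E11.5 overlap. After the promoter, the highest signal was 12281, in a region of 6557 bp inside Cwc22 at chr2:77887596-77894152. A region of 6166 bp across the end of the gene, at chr2:77880205-77886370, had a signal of 10115. A region of 3360 bp near the upstream edge, at chr2:78019958-78023317, had a signal of 8293. By width, the first and second of these stood at percentile 99.9 of the E10.5 list. By signal per bp they stood at percentile 64.5 and 56.3, so their high totals came with great width.

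Dividing signal by width gives signal per bp, the measure in which the run and its flanks were compared. The median was 1.20 inside the run (quartiles 0.870 to 1.71, n = 71) and 1.28 in the interval outside it (1.00 to 2.19, n = 23). Over the whole E10.5 list it was 1.48 (0.999 to 2.27). The ratio of inside to outside was 0.933, and the quartiles of the 2 groups overlapped over most of their range. The side of 1 on which it fell was not stable, but the 2 groups also changed with the setting. Except among regions of 300 to 1000 bp, the run was found anew, and regions of the main run left out of it counted as outside. With gaps of at most 5 kb these included a block of 15 regions with a median of 0.763, and the median outside was 1.16. The ratio was 1.15 when a run allowed gaps of at most 5 kb and 1.06 when only the E10.5 regions of highest −log10 p were kept, as many as in the E11.5 list. It was 0.817 with −log10 p of at least 5, 0.756 with only the E10.5 regions of highest signal, as many as in the E11.5 list, and 0.797 among regions of 300 to 1000 bp. The excess at E10.5 thus lay in number, width and covered length, and no excess in signal per bp held over these settings. The medians inside and outside mix regions of different widths, and the values at like width are given below. Of the regions of the run 32.4% were above the list's median signal per bp, as were 34.8% of those outside. The run's values reached from 0.356 to 4.51, and the highest was the Cwc22 promoter.

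The 5 highest values of signal per bp in the interval were the Cwc22 promoter and 4 regions outside the run. The Zfp385b promoter at chr2:77815856-77817477 had 3.65. A region in the noncoding gene 4930440I19Rik, at chr2:78189586-78190405, had 3.28. A region in Gm14461, at chr2:78284794-78285376, had 2.83, and one in Zfp385b, at chr2:77456699-77456932, had 2.77. Of these 5, all but the last overlapped an E11.5 region. The strongest region of the run apart from the promoter by this measure, at chr2:77917709-77918934 in Cwc22, had 2.75 and no E11.5 overlap.

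The regions of the run were wider than those of its flanks. The median width was 917 bp inside (quartiles 594 to 1696) and 442 bp outside (267 to 576), against 624 bp in the whole list. Regions of at least 2000 bp numbered 14 of 71 in the run, or 19.7%, and 0 of 23 outside it, against 6.48% of the whole list. In the whole list signal per bp grew with width, with medians of 1.18 under 500 bp, 1.41 from 500 bp, 2.35 from 1000 bp and 2.94 from 2000 bp. In the run the medians in these classes were 1.13 (n = 14), 0.870 (n = 26), 1.33 (n = 17) and 1.78 (n = 14). At like width the run's regions were thus lower per bp than the list, by most in the 2 wider classes. These classes did not separate regions by E11.5 overlap. Among regions of all widths without an overlap, the median was 1.19 in the run (n = 68) and 1.20 in the list. Those of the list were narrower, with a median width of 500 bp against 886 bp. Outside the run the 6 regions of 500 to under 1000 bp had a median of 2.21, against 0.870 in the run, and the 2 regions of 1000 to under 2000 bp had 2.96, against 1.33. Under 500 bp the medians were 1.14 outside (n = 15) and 1.13 inside. Of the run's 31 regions of at least 1000 bp, 27 were at or under the list's median for their width class. The −log10 p followed the same order, with a median of 6.74 in the run's regions of at least 2000 bp and of 10.6 in those of the list.

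**Figure D3:**
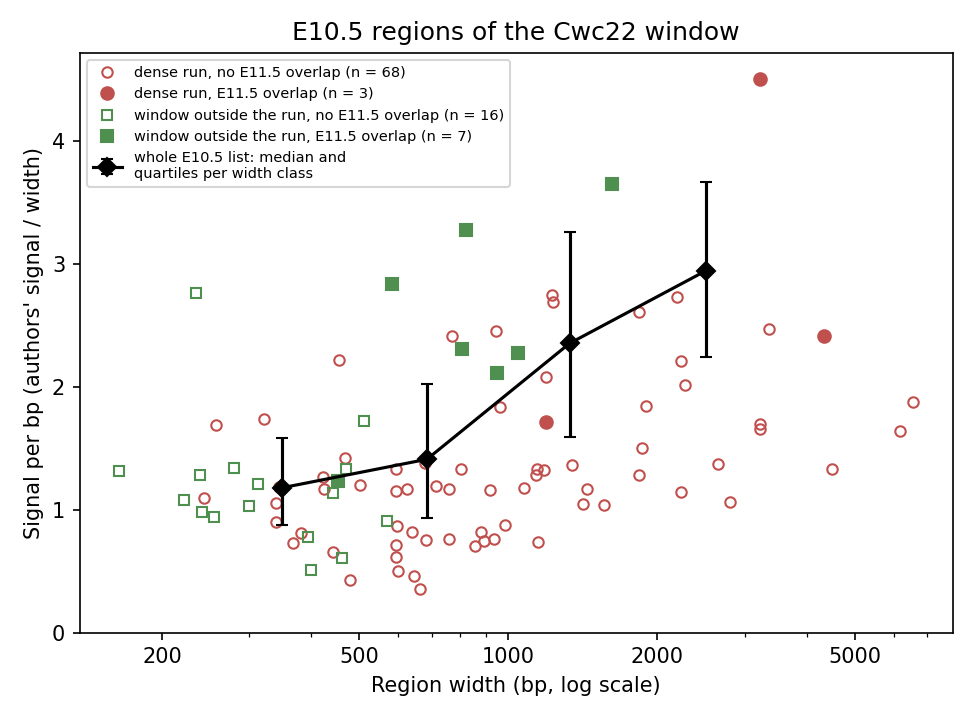
Signal per bp against width (log scale) for the 94 E10.5 regions of the interval, with circles for the run and squares for the rest, filled where an E11.5 region overlaps; black diamonds give the median and quartiles of the whole E10.5 list in 4 width classes. Of the 31 regions of the run of at least 1000 bp, 27 lie at or under the list's median for their width class, while 6 of the 7 filled squares lie above it.

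The regions of the run were also close together. The median gap between neighbours was 391 bp and the smallest 101 bp, which is the smallest in the whole list. Of 70 gaps 38 were under 500 bp, or 54.3%, against 10.1% of the gaps of the whole list, whose median gap was 7.98 kb. A count of regions in the run therefore depends on where the caller joined or split neighbouring stretches, while the covered length does so less.

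Across the genome, 170 of 2621 adjoining 1 Mb windows on chromosomes 1 to 19 and X held at least 94 E10.5 regions, which is 6.49%. Medians per window were 31 regions at E10.5 and 12 in the later list, so the 10 E11.5 regions of the Cwc22 interval were near the median. Of the windows, 103 also held 10 E11.5 regions. Their E10.5 counts ran from 8 to 76 with a median of 23, and the Cwc22 interval, at 94, lay above all of them. Its ratio of E10.5 to E11.5 regions was 9.40, and 18 of 1870 windows with at least 20 regions in all had a ratio as high or no E11.5 region. The interval was selected on its E10.5 regions and centred on Cwc22, while adjoining windows can split a dense run. Its high place among them is therefore favoured by that choice.

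The E10.5 list formed 44330 runs at the same largest gap, and 152 of them held 20 or more regions. The Cwc22 run ranked 5 by number of regions, 15 by length, 6 by regions per 100 kb (43.3) and 9 by covered share. By the share of its regions with an E11.5 overlap it ranked 3 from the bottom, at 4.23%. The median of the 152 runs was 22.7%, with quartiles of 14.3 and 30.5%. Of the 12 runs with 50 or more regions it had the lowest share, and the 12 ran from 4.23 to 89.7%. By median signal per bp it ranked 116 of 152. By median width, 917 bp, it ranked 68, near the median of 875 bp over the 152 runs, so the width of its regions was usual for a long run.

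**Figure D4:**
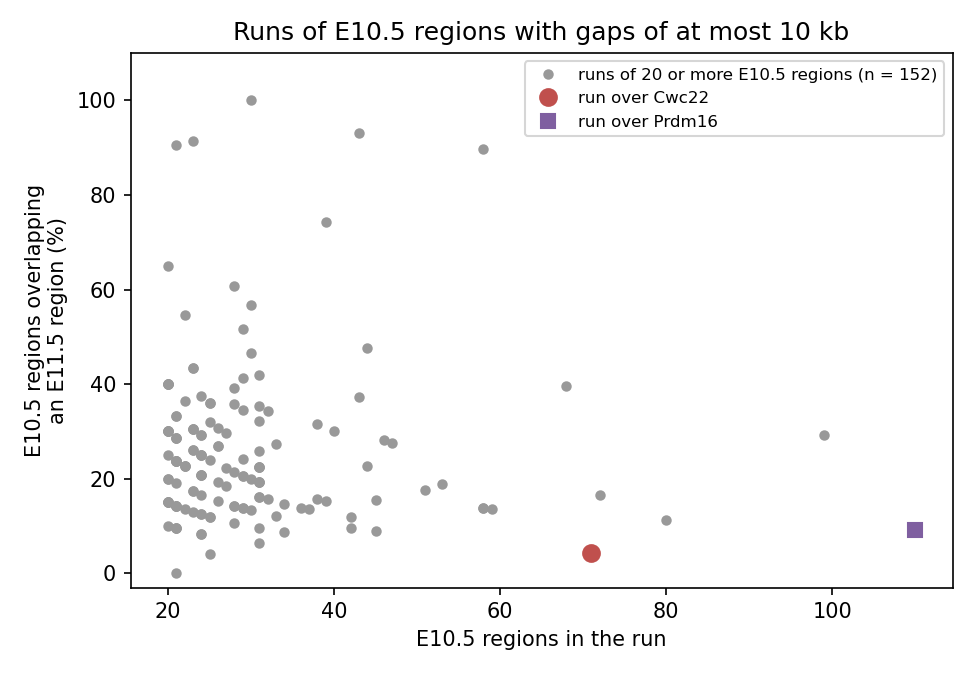
Each of the 152 runs of 20 or more E10.5 regions, by its number of regions and the percent of them that overlap an E11.5 region; the runs over Cwc22 and Prdm16 are in colour. The Cwc22 run, with 71 regions and 4.23%, has the lowest share among the 12 runs with 50 or more regions.

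The run with the most regions in the list was that over Prdm16, a transcription factor gene, at chr4:154328631-154675948. It held 110 E10.5 regions in 347 kb, covered 62.8% of its length, and had a median width of 1347 bp and a median signal per bp of 1.12. Of its regions 10, or 9.09%, overlapped an E11.5 region. The Prdm16 run thus stood near the Cwc22 run in covered share, signal per bp and E11.5 overlap, and was longer. An interval with the opposite order lay at Speer4d on chromosome 5, within a multigene family. Its E11.5 list formed a run of 64 regions in 140 kb at chr5:15575345-15715789, where 16 E10.5 regions lay. The regions there covered 35.8% of the run and had a median signal per bp of 0.806 at E11.5. None of these intervals was tested against the Cwc22 interval.

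Outside the run the interval held few regions, and the E10.5 regions with an E11.5 overlap were the stronger ones by median. Single regions went the other way. The overlapping region at chr2:77506336-77506788 had signal 560 and 1.24 per bp. The region at chr2:77456699-77456932, without overlap, had 647 and 2.77. On the Zfp385b side 12 regions lay at E10.5 and 3 in the later list, and on the side of 4930440I19Rik and Gm14461 there were 11 and 4. The E10.5 density was 2.88 and 2.62 regions per 100 kb, so the flanks were alike. At the Zfp385b promoter the signal was 5920 over 1622 bp at E10.5 and 3546 over 1481 bp at E11.5, in regions that began at the same base. The 7 flanking E10.5 regions with an E11.5 overlap had a median signal per bp of 2.31, and the 16 without had 1.11. In the run these medians were 2.41 for 3 regions and 1.19 for 68, and in the whole E10.5 list 2.63 and 1.20.

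At E11.5 the 5 strongest regions of the interval were spread over it. They were the Zfp385b promoter at chr2:77815856-77817336 (signal 3546), the Cwc22 promoter (3125), a region in 4930440I19Rik at chr2:78189610-78190237 (974), the region at the downstream edge of the run (692) and a region in Gm14461 at chr2:78275728-78276147 (631). The weakest, in Zfp385b at chr2:77506355-77506845, had a signal of 201, just above the smallest value of the list. The E11.5 regions of the interval had a median signal per bp of 1.51, near the 1.47 of their list.

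At the edges of the interval the values were ordinary for the locus. The outermost E10.5 regions inside it, at chr2:77456699-77456932 and chr2:78418862-78419303, had signals of 647 and 502. The nearest E10.5 regions beyond it lay 1.84 and 16.0 kb outside, with signals of 512 and 699. The nearest E11.5 regions beyond it lay 104 and 270 kb outside, with signals of 424 and 1216.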

How the data were processed

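Chromatin accessibility was measured by ATAC-seq in 4 samples, grouped by the stage in their titles. Per the submitters' processing notes, cutadapt, Bowtie2, SAMtools, deepTools and Genrich were used on the mm10 build. Their roles and settings, read-end shifts and the joining of replicates are not given in the sources used here. The authors deposited 1 narrowPeak list per stage, with mm10 as its build per the file headers. Each region carries a deposited signal value, a total that grows with width, and a deposited −log10 p. The deposited score restates signal per bp on a scale that ends at 1000 and was not used. What the signal sums is not stated. Signal per bp exceeded a region's −log10 p in 0 peaks of either list.

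Regions on chromosomes 1 to 19, X and Y were used (99356 and 37413). Coordinates are 1-based. Overlap means at least 1 bp. Runs, bins, medians and 95% Wilson intervals were computed with Python 3.11.15, pandas 2.3.3 and SciPy 1.17.1, and run finding and overlap were tested on simulated data. Genes and promoter sequences came from RefSeq tables of GRCm38.p6, and the marker genes' strand from GENCODE by symbol. Depth is unknown, and no test was made. The interval, rules and lists were chosen with earlier results of these data known. By rule the text names Cwc22, the interval's protein-coding genes, promoter and edge regions and the 5 strongest regions per list. The alternatives are a stricter −log10 p, a reduced E10.5 list, other gaps, window and width limits, and reciprocal overlap.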

Additional observations from a re-analysis of the deposited data

How the results depend on the processing

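No paired analysis was possible because there is 1 joined list per stage, which also means that leaving out a replicate was not an option. Depth limits every count and could not be assessed. A count, length or median was taken as stable within 1.5 times, and a percentage within its 95% interval. Of the alternatives, the reduction by −log10 p was chosen after seeing the data. Over all settings 20 values were stable, 21 moved and 2 changed side. The stable values include those for gaps of at most 20 kb, where the run was the same 71 regions and no value could differ. With −log10 p of at least 5 39 regions of the E10.5 list and 5 of the later list lay in the interval, and the run held 22 regions in 88.5 kb, with median signal per bp of 1.86 inside and 2.27 outside. With the E10.5 list reduced by signal, the interval held 38 regions and the run 25, of which 12% overlapped an E11.5 region, and the medians were 1.72 inside and 2.27 outside. Reduced by −log10 p, the interval held 21 and the run 8 regions in 37.9 kb, 12.5% of them overlapping, with medians of 2.45 inside and 2.31 outside, so the ratio changed side, to 1.06. With gaps of at most 5 kb the run held 44 E10.5 regions in 82.1 kb and 1 E11.5 region, and the ratio was 1.15. Within 100 kb of the start there were 3 E11.5 regions. With 50% reciprocal overlap 1.41% of the run overlapped, against 20.3% of the whole E10.5 list. The overlapping share over all regions of each reduced list is not given here, so the 12 and 12.5% have no background beside them. At the settings with a change of side the run was found anew, and regions of the main run counted as outside. Whether this accounts for the changes of side was not tested. Fewer regions under a stricter threshold follow from its construction.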
